A study of Mus musculus with 21 samples.

Results

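The miRNAs described here are the 10 mature products, both arms of miR-127, miR-136, miR-431, miR-433 and miR-434, that lie antisense to the imprinted gene Rtl1. They were taken by name from the table of 1647 mature miRNAs, and all 10 were listed and passed the filter on low counts in both organs. The study asked how gene expression programs change in the mouse cochlea and in the superior olivary complex (SOC), an auditory centre of the brainstem, at E16, P0 and P16, the last age being after the onset of hearing. All animals were wild type, untreated and of both sexes. The cochlear libraries (2 at E16 and 4 at each later age) were made from the sensory epithelium of pooled inner ears of C57BL/6JOlaHsd mice with the SMARTer smRNA-Seq kit. The SOC libraries (4 at E16, 4 at P0, 3 at P16) were made from pooled C57Bl6/J animals, labelled neuronal, with the TruSeq Small RNA kit. Strain, extraction, kit and sequencing depth therefore differ with the organ, and the organ cannot be told apart from them in a comparison of levels.

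The Dlk1-Dio3 region is imprinted, so that the 2 parental chromosomes express different genes. The paternal chromosome expresses protein-coding genes, among them Dlk1 and Rtl1, while the maternal one expresses long noncoding transcripts, among them Meg3, Rtl1as, Rian and Mirg. MiRNAs are cut from the maternal transcripts, and those of Rtl1as pair perfectly with the paternal Rtl1 mRNA and are known to direct its cleavage in trans. The region is known for its activity in embryo, placenta and brain. Each hairpin yields a 5p and a 3p product, and the loading of the Argonaute protein usually favours one of them. Bases 2 to 8 of a mature miRNA, the seed, lead the recognition of imperfectly paired targets.

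All 10 mature sequences were found in the RefSeq table for GRCm38.p6, and they are shown because the seeds and the antisense position define this group. Capitals mark the seed.
mmu-miR-127-3p: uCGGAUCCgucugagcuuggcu
mmu-miR-127-5p: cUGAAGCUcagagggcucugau
mmu-miR-434-3p: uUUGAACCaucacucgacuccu
mmu-miR-434-5p: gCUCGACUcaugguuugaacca
mmu-miR-433-3p: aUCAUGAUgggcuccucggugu
mmu-miR-433-5p: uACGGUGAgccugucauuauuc
mmu-miR-431-5p: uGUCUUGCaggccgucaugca
mmu-miR-431-3p: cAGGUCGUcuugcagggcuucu
mmu-miR-136-3p: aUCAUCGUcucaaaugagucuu
mmu-miR-136-5p: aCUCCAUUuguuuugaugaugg
The 10 seeds were all different, and no other mature miRNA of the RefSeq table carried any of them.

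In mm10 (GRCm38, with the gene models of GENCODE), the 5 hairpins lie on the plus strand of chromosome 12 within 4942 bp. Mir431 lies at chr12:109590447-109590537, Mir433 at chr12:109591715-109591838, Mir127 at chr12:109592846-109592915, Mir434 at chr12:109594506-109594599 and Mir136 at chr12:109595327-109595388. Rtl1 lies on the minus strand at chr12:109589193-109600330, and every hairpin falls inside its exon 2 and inside its coding sequence, chr12:109590172-109595403. The reverse complement of all 10 mature sequences was found without a mismatch in the Rtl1 transcript. The same exon holds Mir432, between Mir434 and Mir136, and Mir3071, which lies on the minus strand opposite Mir136.

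**Figure D1:**
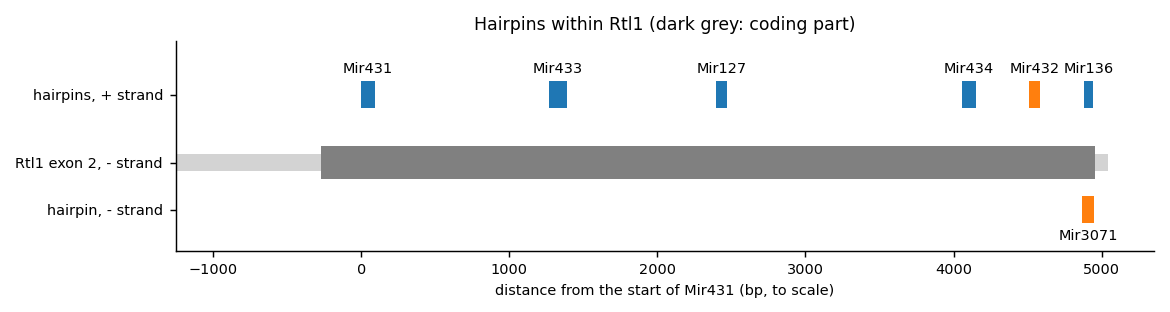
Positions of the hairpins relative to Rtl1 exon 2, drawn to scale as the distance in bp from the start of Mir431, with the 5 hairpins described here in blue and Mir432 and Mir3071 in orange. All 5 lie within 4942 bp on the strand opposite Rtl1, inside its coding part (dark grey), and Mir3071 overlaps Mir136.

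The overlap of Mir136 and Mir3071 touches the counts of miR-136, and these sequences show it. Capitals again mark the seeds.
miR-136-5p: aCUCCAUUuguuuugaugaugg
miR-3071-3p: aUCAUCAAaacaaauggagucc
miR-136-3p: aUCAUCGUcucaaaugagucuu
miR-3071-5p: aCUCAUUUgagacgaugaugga
Over a run of 20 bases miR-136-5p is the reverse complement of miR-3071-3p, and over a run of 19 bases miR-136-3p is that of miR-3071-5p. The sources used here do not state whether strand was used in counting, so reads of one entry and of its partner cannot be told apart, and values are given below both as listed and with the partners summed.

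Total counts were 124400 to 447419 per cochlear library and 8309669 to 18053698 per SOC library, so that 1 count was worth 2.24 to 8.04 CPM, counts scaled to a common library total, in the cochlea. A miRNA with 1 count in each of 2 cochlear libraries of an age therefore passed the filter, which asked for over 1 CPM. Shares over all cochlear miRNAs tested may include such miRNAs. The 11 SOC libraries did not fall together by age alone. miR-99b-5p took over 10% of the counts in 4 of them (E16 replicates 2 and 3, P0 replicates 2 and 3), and miR-191-5p took under 1% in 3 others (P0 replicate 4, P16 replicates 2 and 3). The SOC libraries are therefore named below as rich in miR-99b-5p, low in miR-191-5p, or neither. SOC results are given with a term for this set in the fit where it changes them. These sets were drawn from the counts themselves, no label gives them, and they are partly confounded with age. No E16 library was low in miR-191-5p and no P16 library was rich in miR-99b-5p. With the term, P16 and E16 meet directly only in libraries of neither set (E16 replicates 1 and 4, P16 replicate 1), and otherwise through P0. FDRs with this term do not allow for the choice of sets. Hair-cell marker miRNAs (miR-96-5p, miR-182-5p and miR-183-5p) summed to 85032 to 164652 CPM in the SOC at E16 and 521 to 3501 CPM at P16, beside 52324 to 55846 CPM in the cochlea at E16 with the other kit, so they did not set the cochlea apart here. Neuronal markers (5 of 5 detected) summed to 39637 to 117917 CPM in the SOC at E16 and to 2855 to 3357 CPM in the cochlea at E16, and all 3 hair-cell markers were present in every cochlear group.

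The 10 miRNAs took 0.138% to 0.261% of the counts in the cochlea and 12.6% to 34.8% in the SOC. In the cochlea this share was 0.243% and 0.261% at E16, 0.138% to 0.176% at P0 and 0.154% to 0.209% at P16, so both E16 libraries were above all others. In the SOC it was 18.6% to 22.3% at E16, 12.6% to 28.6% at P0 and 26.1% to 34.8% at P16, so that P16 lay above E16 while P0 overlapped both. miR-127-3p made up 72.6% to 96.0% of these counts in the SOC against 22.2% to 36.7% in the cochlea, and 11.3% to 32.4% of all counts of a SOC library. These are shares of counts from different kits, and they rank no tissue.

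Levels below are CPM scaled with the TMM factors of each organ, which correct library totals for composition, and are not comparable between the organs. In the cochlea at E16 the order of mean levels was mmu-miR-434-3p (629 ± 159, SD, n = 2), mmu-miR-127-3p (576 ± 52.5), miR-136-3p (222 ± 20.7), mmu-miR-434-5p (187 ± 8.99), mmu-miR-433-3p (144 ± 15.2) and miR-431-5p (93.2 ± 27.8), followed by the other 4 at 33.9 or less. Only the first pair of these 6 overlapped between libraries. At P0 and P16 miR-434-3p, miR-127-3p and miR-433-3p held the first 3 places, overlapping each other except for miR-127-3p and miR-433-3p at P0, and the next in order, miR-434-5p, averaged 47.0 ± 4.28 at P0 (n = 4) and 63.2 ± 24.0 at P16 (n = 4). In the SOC miR-127-3p was first at every age and miR-434-3p second, without overlap between them. The SOC order below them at E16 was miR-434-5p (2497 ± 852, n = 4), miR-431-5p (2255 ± 295) and miR-433-3p (793 ± 333), and at P16 miR-433-3p (2778 ± 770.1, n = 3) had moved above miR-434-5p (1340.5 ± 609.7) and miR-431-5p (704 ± 358), without overlap with either.

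**Figure D2:**
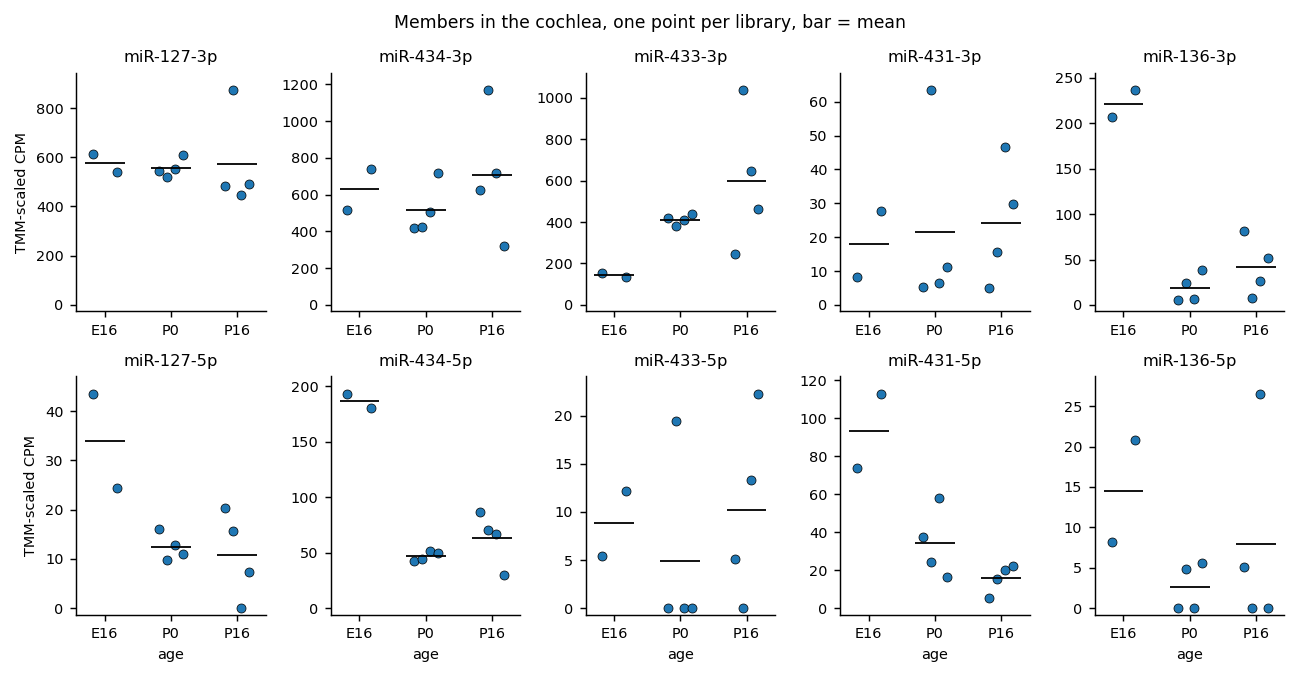
TMM-scaled CPM (vertical axis, from 0, a different scale in each panel) of the 10 miRNAs in each cochlear library at E16 (2 libraries) and at P0 and P16 (4 each), with bars at the mean. miR-136-3p and miR-434-5p are highest in both E16 libraries, miR-433-3p is lowest in them, and miR-127-3p averages 576, 557 and 573 at the 3 ages.

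In the cochlea 3 of the 10 miRNAs changed between E16 and P0 and 4 between E16 and P16. A change was called where edgeR's quasi-likelihood test gave an FDR under 0.05 over all miRNAs tested in the organ, the fold change exceeded 1.5 and the libraries of both ages did not overlap. At P0 1 rose and 2 fell, with 7.81% of the 896 miRNAs tested called higher and 16.6% called lower (24.4% in all), a share close to that of the 10. At P16 1 rose and 3 fell, against 10.9% higher and 18.6% lower (29.6% in all), again not far from theirs. The median log2 change of the 10 was −1.06 at P0 and −0.42 at P16, beside 0.00 and −0.09 over all miRNAs tested. At P0 it fell between miR-127-5p (−1.40) and miR-433-5p (−0.72), minor arms with at most 4 counts in a P0 library. At P16 it fell between miR-136-5p (−0.83), also low in counts, and miR-127-3p (−0.01). Between P0 and P16 none was called (10.5% of all), with 0 at an unadjusted p under 0.05 and 0 by DESeq2 or by limma. Since E16 is represented by 2 libraries, single libraries decide part of this. Without either E16 library in turn miR-136-3p alone remained called at P0, and without E16 replicate 2 it alone remained at P16.

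mmu-miR-127-3p, one of the products known to cut Rtl1 mRNA, had a nearly even TMM-scaled level in the cochlea. It stood at 613 and 538 CPM at E16, at 546, 521, 552 and 609 at P0, and at 484.6, 872, 445 and 491 at P16. On this scale the ages overlapped, P16 replicate 2 was above all other libraries, and the log2 changes from E16 were −0.05 (SE 0.43) at P0 and −0.01 (SE 0.43) at P16. As a share of library totals it was 0.0815% and 0.0693% at E16 and lower, 0.0465% to 0.0565%, in every later library. Over 20 alternatives the log2 change of miR-127-3p ran from −0.51 to 0.56 at P0 and from −0.57 to 0.59 at P16, with 0 calls. With TMM scaling miR-434-3p gave 517 and 742 CPM at E16, 417 to 720.0 at P0 and 319.6 to 1167 at P16, with log2 changes of −0.29 (SE 0.42) and 0.17 (SE 0.43). The minor arm miR-127-5p was counted 16 and 14 times at E16 and 0 to 4 times in every later library, and its log2 changes, −1.40 (SE 0.97) and −1.54 (SE 1.01), did not pass the test.

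miR-433-3p rose in the cochlea. It stood at 155 and 133.7 CPM at E16, at 417, 379.9, 410.9 and 438 at P0, and at 245, 1035, 644 and 461 at P16. Every later library was above both E16 libraries, P0 was tight and P16 was spread. The log2 change was 1.51 (SE 0.48, edgeR FDR = 0.0104) at P0 and 2.04 (SE 0.49, FDR = 0.000259) at P16. With library totals in place of TMM factors the median of all cochlear miRNAs moved by −0.38 at P0 and −0.50 at P16, and the rise of miR-433-3p at P0 was 1.05 and was no longer called (edgeR FDR = 0.110), which leaves a split of 0 up and 3 down where TMM gave 1 and 2. Over all miRNAs called at P0, the share called higher was 32.0% with TMM and 15.6% with library totals. At P16 the rise of miR-433-3p was called with either scaling, while the share called higher over all was 37.0% and 23.5%. Its 5p arm had 0 to 7 counts per cochlear library and no call.

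miR-136-3p showed the largest fall of the 10 in the cochlea at P0. It was counted at least 76 times in either E16 library (207 and 236 CPM), 1, 5, 1 and 7 times at P0 (5.35, 24.4, 6.42 and 38.8 CPM) and 16, 1, 4 and 7 times at P16 (81.6, 7.78, 26.6 and 52.0 CPM). No later library reached either E16 library. The log2 change was −3.51 (SE 0.65, edgeR FDR = 1.81e-06) at P0 and −2.33 (SE 0.61, FDR = 0.000963) at P16. Summing it with the opposite entry miR-3071-5p, which had 3 counts in all 10 cochlear libraries, gave −3.54 (FDR = 1.39e-06) at P0.

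miR-136-5p depended on that overlap. As listed it had 15 counts in both E16 libraries together and 2 in the 4 P0 libraries, a level 7.93-fold lower at P0 per total count (95% interval from the counts 1.84 to 71.5), and its change did not pass the test (log2 change −2.24, SE 1.34, edgeR FDR = 0.203). miR-3071-3p, its near-perfect complement, had 103 and 139 counts at E16, 3 to 20 at P0 and 25 to 71 at P16. Summed, both gave 106 and 151 counts at E16, 20, 21, 3 and 8 at P0 and 72, 25, 67 and 36 at P16. For miR-136-5p summed in this way edgeR then called a fall at P0 (−1.98, SE 0.49, FDR = 0.00063) and a rise from P0 to P16 (2.22, SE 0.44, FDR = 1.19e-05), and none from E16 to P16 (0.24, SE 0.49, FDR = 0.730). This alternative was chosen after the counts had been seen.

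miR-431-5p, known from injured sensory neurons where it promotes axon growth, fell in the cochlea between E16 and P16. Its levels were 73.5 and 113 CPM at E16, 37.4, 24.4, 57.8 and 16.6 at P0, and 5.10, 15.6, 19.9 and 22.3 at P16, from 65 counts down to 1 in a library. The ages P0 and P16 overlapped, and neither reached E16. The log2 change was −1.47 (SE 0.70, edgeR FDR = 0.104) at P0 and −2.59 (SE 0.78, FDR = 0.0046) at P16. Its 3p partner had 1 to 16 counts per library and log2 changes of 0.26 (SE 0.91) and 0.34 (SE 0.94).

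miR-434-5p fell in the cochlea while miR-434-3p did not pass the test. It stood at 193 and 181 CPM at E16, 42.8, 43.8, 51.4 and 49.8 at P0, and 86.7, 70.0, 66.4 and 29.7 at P16. The P0 libraries were 8 or 9 counts each and close together, and all later libraries were below E16. The log2 change was −1.98 (SE 0.59, edgeR FDR = 0.00566) at P0 and −1.54 (SE 0.59, FDR = 0.031) at P16, and the P16 call was made in 13 of 19 alternatives. It was lost without either E16 library or P16 replicate 4, with limma on quantile-normalized values, with all 21 libraries in 1 fit and with a block on replicate number (FDR 0.0835 to 0.175).

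Marker miRNAs of several cell types also moved with age in the cochlea. None of the 3 hair-cell markers was called between any ages, but their sum was lower in every later library than at E16. It was 52324 to 55846 CPM at E16, 33733 to 37995 at P0 and 16684 to 38389 at P16. The 5 neuronal marker miRNAs summed to 2855 to 3357 CPM at E16, 649 to 1235 at P0 and 1089 to 1606 at P16. Of these 5, 3 were called lower at P0, and 1 was called higher and 3 lower at P16. The 4 blood markers found of 5 summed to 1525 to 1707 CPM at E16 and 193 to 273 at P0, with 3 of 3 tested called lower. The 7 epithelial markers summed to 14737 to 22575 CPM at E16 and 5657 to 7803 at P0, with 3 called lower. Muscle markers (5 of 6 found, 2 of them at 0 in every P16 library) summed to 218 to 549 CPM at the earlier ages and 1097 to 4295 at P16, with 1 of 2 tested called higher. Cartilage markers (2 of 2) summed to 1997 to 2064 CPM at E16, 405 to 620 at P0 and 1268 to 2035 at P16, with both called lower at P0 and both higher from P0 to P16. Mesenchyme markers (4 of 5 found) had 1 called higher and 2 lower at P0 and at P16. They summed to 47583 to 50873 CPM at E16, 52768 to 77631 at P0 and 14577 to 27422 at P16. The 2 oligodendrocyte markers summed to 6.42 to 66.5 CPM at the earlier ages and 296 to 511 at P16, with the 1 tested called higher. Their part in the changes of the 10 miRNAs was not tested, and in bulk samples fewer cells of a type and less RNA per cell cannot be told apart.

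**Figure D3:**
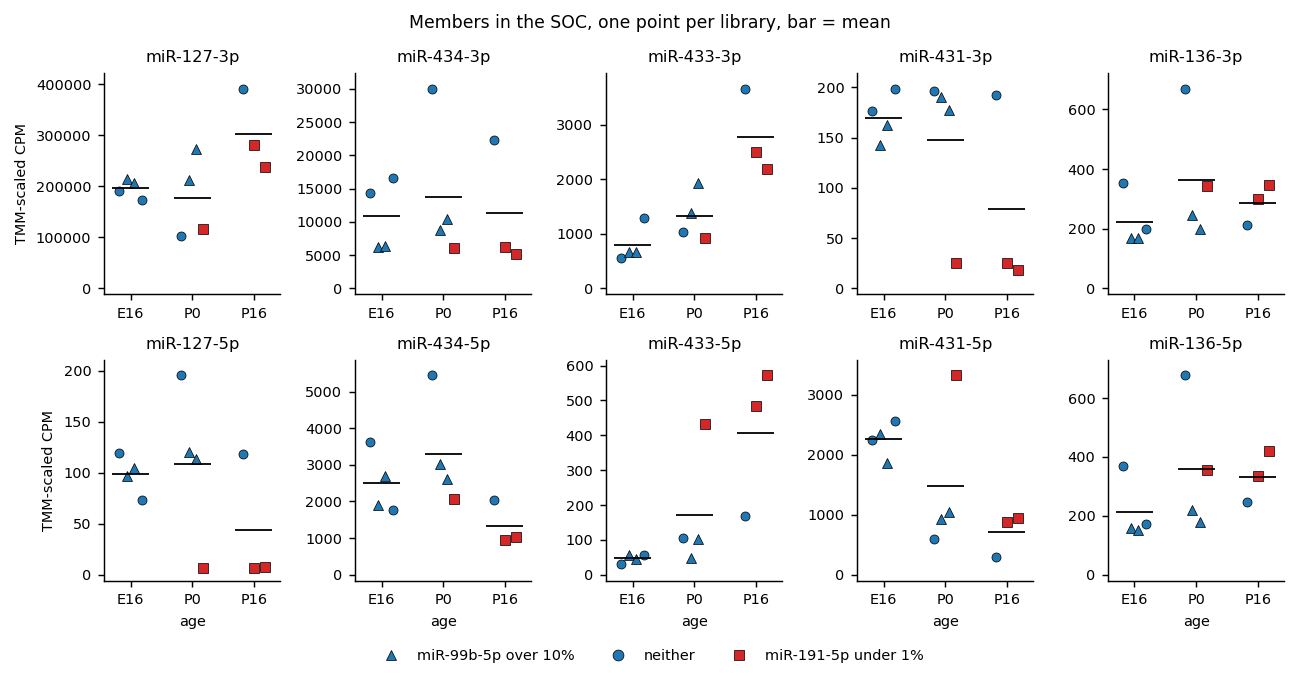
TMM-scaled CPM (vertical axis, from 0, a different scale in each panel) of the 10 miRNAs in each SOC library at the 3 ages (11 libraries), with bars at the mean. Triangles are libraries rich in miR-99b-5p, red squares those low in miR-191-5p and circles the others, and the red squares lie apart from all other libraries for miR-127-5p, miR-431-3p and miR-433-5p.

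In the SOC none of the 10 was called at P0 and 3 were called at P16. At P0 the count of 0 stood beside 6.63% of 694 miRNAs tested, with 1 at an unadjusted p under 0.05 (miR-433-5p) and 0 by DESeq2 or by limma. At P16 miR-433-3p and miR-433-5p rose and miR-431-5p fell, against 21.2% of all miRNAs called higher and 20.0% called lower (41.2% in all), a difference in share that was not tested. Under library totals miR-431-5p was not called at P16, which leaves 2 up and 0 down. At P0 library totals moved the median of all SOC miRNAs by 0.12 and the share called higher from 37.0% to 49.0%. The median log2 change of the 10 was 0.37 at P0 and 0.21 at P16, beside 0.17 and 0.08 over all. From P0 to P16 none was called (16.1% of all), with 2 at an unadjusted p under 0.05 (miR-433-3p and miR-434-5p), 2 by DESeq2 and 0 by limma. With a term for the set 2 were called from P0 to P16. Without P0 replicate 4 or P16 replicate 1 miR-433-5p and miR-434-5p were called from P0 to P16, and without P16 replicate 1 miR-127-5p and miR-431-3p joined both arms of miR-433 from E16 to P16.

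miR-127-3p was the most abundant of the 10 in every SOC library. It stood at 191688, 214082, 205809.7 and 172501 CPM at E16, 102703, 213323, 274155 and 117421 at P0, and 390510.4, 280252 and 237552 at P16. All 3 P16 libraries were above the 4 E16 libraries, and P0 overlapped both. The log2 change at P16 was 0.63 (SE 0.44, edgeR FDR = 0.261), and with a term for the library set it was 1.16 (SE 0.28, FDR = 0.00303). Within the libraries low in miR-191-5p it was 117421 at P0 and 280252 and 237552 at P16. The rise was called in 2 of 24 alternatives, with the set term and with all 21 libraries in 1 fit.

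miR-433-3p rose in the SOC as in the cochlea. It stood at 559, 665.2, 662 and 1287 CPM at E16, 1036, 1386, 1931 and 923 at P0, and 3648, 2502 and 2184 at P16. The P16 libraries were above all others, while P0 and E16 overlapped. The log2 change at P16 was 1.81 (SE 0.42, edgeR FDR = 0.00534), and 2.201 (SE 0.36, FDR = 0.00016) with a term for the set. P0 lay above E16 among the libraries rich in miR-99b-5p (1386 and 1931 against 665.2 and 662), and P16 above P0 among those low in miR-191-5p (2502 and 2184 against 923). Among the libraries of neither set, P0 (1036) lay between the E16 libraries (559 and 1287), and P16 (3648) lay above them. The call at P16 was made in 23 of 24 alternatives and lost once the 4 libraries rich in miR-99b-5p were dropped (1.57, FDR = 0.101). From P0 to P16 the log2 change of miR-433-3p was 1.07 (SE 0.42, edgeR FDR = 0.0902), called in 3 of 24 alternatives.

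miR-433-5p, the minor arm of the same hairpin, also rose. It stood at 31.6, 57.2, 46.5 and 58.1 CPM at E16, 106, 47.3, 102 and 432.96 at P0, and 168, 484 and 572 at P16. The log2 change at P16 was 3.08 (SE 0.70, edgeR FDR = 0.00471), called in 24 of 24 alternatives. The 3 libraries low in miR-191-5p, among them 1 of P0, held 432.96 to 572 CPM and all 8 others 31.6 to 168, so its size moved with the library set. With a term for the set the change was 1.499 (SE 0.37, FDR = 0.00384), and without those 3 libraries, which leaves 1 library at P16, it was 1.74 (SE 0.47, FDR = 0.0145).

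miR-431-5p fell in the SOC. It stood at 2252, 2346, 1858 and 2563 CPM at E16, 601, 934, 1049 and 3319.6 at P0, and 293, 875 and 946 at P16. P16 was below E16 without overlap, and P0 replicate 4 alone kept P0 from lying below it too. The log2 change at P16 was −1.68 (SE 0.61, edgeR FDR = 0.0427), a call made in 13 of 24 alternatives and lost without any 1 of the 7 E16 and P16 libraries. With a term for the set the change was −1.37 (SE 0.22, FDR = 0.000433) at P0, where the libraries overlapped, and −3.04 (SE 0.29, FDR = 1.62e-06) at P16. Inside each set the later ages were lower, namely 934 and 1049 at P0 against 2346 and 1858 at E16 in libraries rich in miR-99b-5p, 875 and 946 at P16 against 3319.6 at P0 in those low in miR-191-5p, and 601 at P0 and 293 at P16 against 2252 and 2563 at E16 in the others.

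The remaining 6 products gave no call in the SOC at P0 or P16. miR-434-3p stood at 14343, 6192, 6356 and 16558 CPM at E16, 29931, 8788, 10399.9 and 6026 at P0, and 22298, 6278 and 5251 at P16, and the 4 libraries of neither set held the 4 highest values (14343 to 29931). miR-434-5p gave 1755 to 3611 CPM at E16, 2064 to 5439 at P0 and 945 to 2043 at P16, with log2 changes of −0.90 (SE 0.47, edgeR FDR = 0.141) from E16 to P16 and −1.29 (SE 0.48, FDR = 0.0754) from P0 to P16. From P0 to P16 its libraries did not overlap, and with a term for the set this fall of miR-434-5p was called (−1.10, FDR = 0.0093). Both arms of miR-136 had like levels, at 168 to 354 CPM (3p) and 153 to 368 CPM (5p) at E16, 199 to 667.8 and 179 to 677 at P0, and 213 to 348 and 246 to 419 at P16. miR-127-5p stood at 6.40 to 7.37 CPM in the 3 libraries low in miR-191-5p and at 73.1 to 195 in the other 8, and miR-431-3p at 18.8 to 25.0 against 143 to 198.

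Other marker miRNAs also moved with age in the SOC. The hair-cell markers summed to 4392 to 28710 CPM at P0, between the ranges of E16 and P16 given above, and all 3 were called lower at P16. Epithelial markers (7 of 7 found, 3 of 4 tested called lower) summed to 926 to 1963 CPM at E16 and 49.7 to 146 at P16. Muscle markers (5 of 6 found, 2 of 4 tested called lower) summed to 139.6 to 346 CPM at E16 and 10.8 to 33.4 at P16. Oligodendrocyte markers (2 of 2 called higher) summed to 375.98 to 436 CPM at E16 and 2573 to 7747 at P16. Cartilage markers (2 of 2 called lower at P0 and at P16) summed to 434 to 900 CPM at E16 and 71.1 to 91.0 at P16, and 2 of the 4 mesenchyme markers tested were called lower at both ages. Of the 5 neuronal markers, 2 were called higher and 1 lower at P16. They summed to 43928 to 55551 CPM at P16, within the range of E16 and below the 59290 to 110521 of P0. The part of all these markers in the changes of the 10 miRNAs was not tested.

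**Figure D4:**
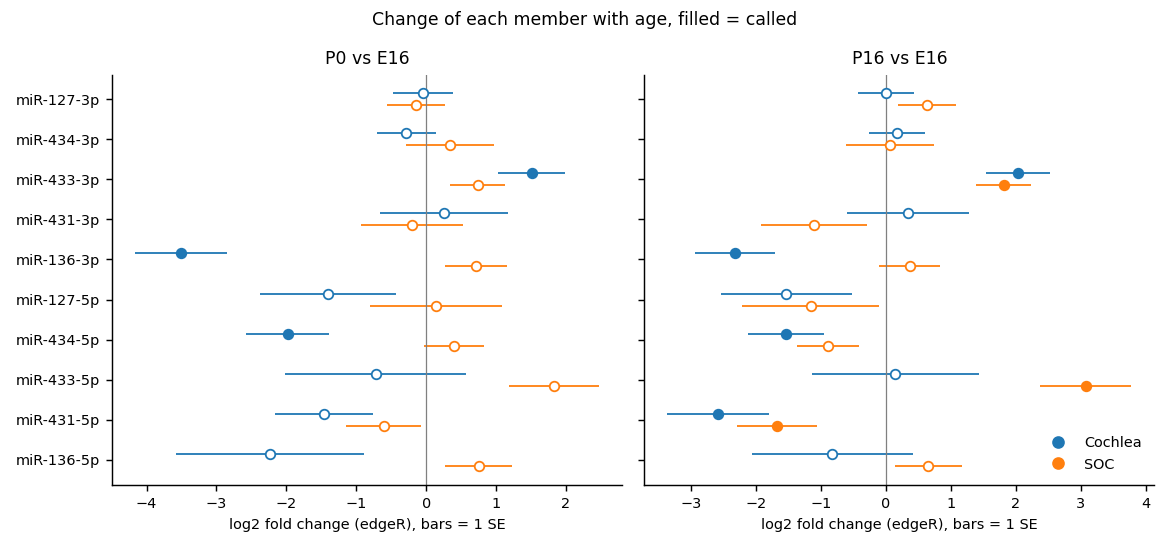
Log2 fold changes (horizontal axis, edgeR, bars 1 SE) of the 10 miRNAs at P0 and P16 against E16 in the cochlea (blue) and the SOC (orange), with filled points where the change was called. miR-433-3p lies to the right and miR-431-5p to the left in both organs at P16, while miR-136-3p lies at −3.51 and −2.33 in the cochlea and at 0.71 and 0.36 in the SOC.

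An organ by age interaction, in 1 edgeR model of all 21 libraries, asked whether a change differed between organs, on the 545 miRNAs that passed the filter in both organs. From E16 to P0, 2 of the 10 differed, with 11.9% of all. miR-136-3p changed by 4.17 more on the log2 scale in the SOC than in the cochlea (SE 0.93, FDR = 0.00398), and this held in 27 of 27 alternatives. miR-434-5p changed by 2.31 more (SE 0.69, FDR = 0.0271), which held in 19 of 27. The call of miR-434-5p was lost, at an FDR of 0.0516 to 0.0787, without cochlea E16 replicate 1, P0 replicate 1 or P0 replicate 4, or without SOC E16 replicate 2 or 4, P0 replicate 1, or P16 replicate 2 or 3. From E16 to P16 none of the 10 passed (16.9% of all), with 2 at an unadjusted p under 0.05 and 1 by DESeq2, and miR-136-3p was nearest (2.52, SE 0.92, FDR = 0.0592). It passed without cochlea P0 replicate 3 or P16 replicate 1, or without SOC E16 replicate 1, P0 replicate 1 or 4, or P16 replicate 1 (FDR 0.0246 to 0.0499). For miR-433-3p the difference was −0.86 (SE 0.64, FDR = 0.356) at P0 and −0.33 (SE 0.65, FDR = 0.780) at P16, and for miR-431-5p it was 0.71 (SE 0.83, FDR = 0.584) and 0.81 (SE 0.91, FDR = 0.613). These tests do not show that the organs changed alike.

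The 5 hairpins differed in how their counts were shared between arms, and 2 of them are printed here with both mature arms in capitals because in the SOC the first had nearly all counts on 1 arm and the second split them almost evenly.
Mir127: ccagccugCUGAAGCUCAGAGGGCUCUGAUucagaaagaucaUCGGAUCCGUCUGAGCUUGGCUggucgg
Mir136: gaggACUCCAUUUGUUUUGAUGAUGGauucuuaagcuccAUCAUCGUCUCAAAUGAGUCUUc
For miR-127 the 3p arm held 99.8% to 99.998% of both arms' counts in the SOC and 93.4% to 100% in the cochlea. The arms of miR-136 were nearly even in the SOC, with 45.3% to 53.7% on the 3p arm in all 11 libraries. In the cochlea the listed counts put 50% to 100% of miR-136 on the 3p arm (median 95.2%), from as few as 1 count a library. Once the opposite miR-3071 entries were added, the cochlear share was 42.7% and 47.4% at E16, 4.76% to 46.7% at P0 and 3.85% to 18.2% at P16, and the SOC share was 45.5% to 52.8%. Which arm of miR-136 led in the cochlea thus depended on whether the opposite entries were added.

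miR-433 and miR-434 favoured the 3p arm in every library, and miR-431 the 5p arm in every SOC library. miR-433 put 68.1% to 96.7% on the 3p arm in the SOC and 91.7% to 100% in the cochlea. miR-434 put 70.1% to 91.6% there in the SOC, and in the cochlea 72.8% and 80.4% at E16 against 87.9% to 94.3% later. miR-431 put 5.73% to 8.04% on the 3p arm in the SOC at E16, 14.5% to 24.6% at P0 except 0.744% in replicate 4, and 39.7%, 2.78% and 1.95% at P16, the 3 lowest shares being those of the libraries low in miR-191-5p.

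**Figure D5:**
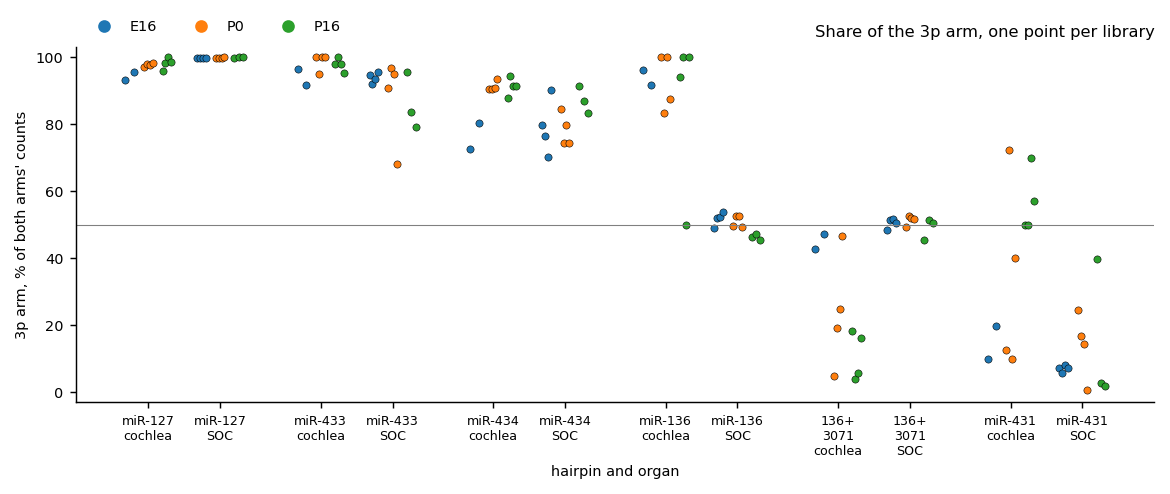
Share of the 3p arm in the counts of both arms (vertical axis, %), 1 point per library coloured by age, for each hairpin in the cochlea and the SOC, and for miR-136 with the opposite miR-3071 entries added. miR-136 lies at 45.3% to 53.7% in the SOC, and in the cochlea moves from a median of 95.2% to 18.7% when the entries are added.

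Changes in arm ratio with age were tested with limma on the log2 ratio of 3p to 5p counts per library, over all hairpins with both arms tested. None of the 5 hairpins passed an FDR of 0.05 in this fit in any of the 4 comparisons with E16. Beside this stood 2.48% of all hairpins at P0 and 7.44% at P16 in the cochlea (2 of the 5 at an unadjusted p under 0.05 in each), and 0% at P0 and 11.2% at P16 in the SOC (0 and 1 of the 5). In the cochlea the difference in log2 ratio was 2.85 for miR-431 at P16 (SE 1.05, limma FDR = 0.102) and 1.63 for miR-434 at P0 (SE 0.69, FDR = 0.190). In the SOC it was 3.03 for miR-127 at P16 (SE 1.15, FDR = 0.0916). This difference passed in 3 of 16 alternatives, namely with a block on replicate number (3.54, FDR = 0.0244), without P0 replicate 4 (FDR = 0.0335) and without P16 replicate 1 (4.18, FDR = 0.0162). The term for the set lowered it to 0.80, which did not pass. The 5p arm of miR-127 was lowest in the libraries low in miR-191-5p. With a term for the set miR-431 in the SOC shifted towards 3p by 1.59 (SE 0.26, FDR = 0.043) at P0 and 3.08 (SE 0.35, FDR = 0.000687) at P16.

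To ask whether products of the same transcript moved by different amounts, each miRNA was set against miR-127-3p of the same library, a ratio that needs no scaling factor (limma on log2 ratios). All of these ratios share the error of miR-127-3p. In the cochlea 3 of the other 9 changed at P0 (24.4% of all) and 4 at P16 (36.8% of all), the same miRNAs as called before. Both tests used the same counts, and with TMM miR-127-3p changed by −0.05 and −0.01, so the repeat is no separate support. miR-433-3p gained 1.55 (SE 0.44, FDR = 0.0182) at P0 and 1.91 (SE 0.44, FDR = 0.00361) at P16, and miR-136-3p changed by −3.66 (SE 0.95, FDR = 0.0116) at P0. Without either E16 library none passed at P0 and miR-433-3p alone passed at P16, and the block on replicate number left 1 at P0 and 2 at P16. In the SOC none of the 9 changed at P0 (3.90% of all, 1 of the 9 at an unadjusted p under 0.05), and 6 did at P16 (43.4% of all). Of these miR-433-3p (1.25, FDR = 0.0452) and miR-433-5p (2.33, FDR = 0.0429) gained, while miR-127-5p (−3.03, FDR = 0.0322), miR-431-3p (−2.51, FDR = 0.0178), miR-431-5p (−2.45, FDR = 0.0173) and miR-434-5p (−1.53, FDR = 0.0493) lost. The value of miR-127-5p is the miR-127 arm ratio given above with its sign turned, which did not pass in the fit across hairpins (FDR = 0.0916), so its call depended on the fit. With a term for the set miR-127-5p (−0.80, FDR = 0.163) and miR-433-5p (0.35, FDR = 0.560) no longer passed, and the fall of miR-431-5p was −4.19 (FDR = 6.35e-08). Leaving out 1 of the 7 SOC libraries of E16 and P16 left 1 to 3 of the 6.

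The neighbouring miRNAs of the imprinted region were described by the same counts, from lists of names. Of 69 listed products of the large cluster from miR-379 to miR-410, 57 were tested in the cochlea, and 2 rose and 21 fell at P0 (median log2 change −1.45) and 3 rose and 23 fell at P16 (−1.47). The median of the 10 Rtl1-antisense products, −1.06 and −0.42, was less negative at both ages. It rests in part on minor arms with few counts, and both lists share their E16 libraries. In the SOC 61 of the cluster were tested, with none called at P0 (median 0.18) and 11 higher and 17 lower at P16 (−0.49). Of 12 products nearer to Meg3, 11 were tested in the cochlea, with 1 up and 3 down at P0 (−0.77) and at P16 (−1.05), and 10 in the SOC, with 1 up and 1 down at P0 (0.07) and 2 up and 2 down at P16 (0.64). Of the 3 other entries inside Rtl1, miR-432 had at most 2 counts in any library.

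The 5 leading arms did not follow one another closely. Over the 10 cochlear libraries the correlation of log2 CPM was lowest between miR-136-3p and miR-433-3p (−0.82) and highest between miR-127-3p and miR-434-3p (0.58). Over the 11 SOC libraries it was lowest between miR-431-5p and miR-433-3p (−0.75) and highest between miR-127-3p and miR-433-3p (0.62). The points share ages, libraries and scaling, so these are descriptions. The miRNAs most like the mean profile of the 5 leading arms, among those averaging at least 100 CPM, were miR-128-3p (r = 0.84), miR-223-3p (0.83), miR-495-3p (0.83), miR-376c-3p (0.82) and miR-324-5p (0.82) in the cochlea, among 240 candidates. In the SOC they were miR-668-3p (0.76), miR-22-3p (0.73), miR-331-3p (0.67), miR-383-5p (0.66) and miR-667-3p (0.62), among 166. miR-495-3p, miR-376c-3p, miR-668-3p and miR-667-3p belong to the cluster from miR-379 to miR-410. The cluster's share of the candidates was not counted, so no particular likeness to the cluster can be read from this. The mean profile also averages arms that ran against each other.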

How the data were processed

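Small RNA of 21 mouse libraries was measured by miRNA-seq. The authors deposited raw counts of reads per mature miRNA, not normalized. Their processing notes name Bowtie2 2.2.5, DESeq2 and mm10, while the study's methods name Bowtie with a MirGeneDB reference; the table itself uses miRBase names, and mismatch, multi-mapping and strand settings are not given in the sources used here.

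MiRNAs over 1 CPM in at least 2 libraries of an age were tested in each organ with edgeR 4.0.16 (R 4.3.3, TMM, quasi-likelihood F test, 3 ages in 1 fit). P-values were adjusted by Benjamini-Hochberg (FDR) across every miRNA tested in that organ. SE is the log2 change divided by the square root of F. Arm ratios and ratios to miR-127-3p (0.5 counts added) were tested with limma 3.58.1. DESeq2 1.42.0 and limma on quantile-normalized log2 CPM were alternatives. The scripts were tested on simulated data.

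All 10 members were named, and the likeness rule took the 5 highest correlations. The members and all lists were chosen with earlier results of these data known. P-values measure only the spread between these libraries, made from pools. Intervals cover counting error only. No pair of libraries of a group agreed within sampling noise. In the SOC, same-numbered E16 and P0 libraries deviated together (r = 0.251 to 0.490 in 4 of 4 pairs), a pairing that comes from the values alone. Replicates 1, 2 and 3 had the same library set at both these ages, and replicate 4 did not. Between P0 and P16, r was 0.548 for replicate 1, in the same set. For replicates 2 and 3, in different sets, it was −0.465 and −0.601. Pairs of E16 with P16 and pairs in the cochlea did not all deviate together. The part of the sets in this pairing was not tested.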

Additional observations from a re-analysis of the deposited data

Results flagged for a closer look

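By Dixon's test, 9 of 40 combinations of a miRNA and a group of 4 libraries held 1 library far from the other 3. The test's rate of about 1 in 20 by chance is for independent, normally distributed values. These values share libraries and include counts at or near 0, so no excess over chance can be read from the 9. Of the 9, 3 belong to SOC P0 replicate 4, the P0 library low in miR-191-5p. It held 24.9 CPM of miR-431-3p against 178 to 196 in the other P0 libraries, 3319.6 CPM of miR-431-5p against 601 to 1049, and 432.96 CPM of miR-433-5p against 47.3 to 106. SOC E16 replicate 1 held 354 CPM of miR-136-3p against 168 to 199 and 368 CPM of miR-136-5p against 153 to 171. SOC E16 replicate 4 held 1287 CPM of miR-433-3p against 559 to 665.2. In the cochlea P16 replicate 2 held 872 CPM of miR-127-3p against 445 to 491. Cochlea P0 replicate 2 held 63.3 CPM of miR-431-3p, from 13 counts, against 5.35 to 11.1, and 19.5 CPM of miR-433-5p, from 4 counts, against 0 in the others.

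The change from E16 to P0 differed between the organs for miR-136-3p, by 4.17 on the log2 scale (SOC minus cochlea, edgeR interaction FDR = 0.00398), and for miR-434-5p, by 2.31 (FDR = 0.0271). Kit and strain differ with the organ, and their part cannot be told apart from it.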

How the results depend on the processing

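Among counts that answer a comparison, under alternatives other than leaving out 1 library, 107 stayed within 1.5 times the reported count and 22 did not, and no called change reversed in direction. The 107 include counts of 0 that stayed at 0 and counts of 3 that fell to 2. They therefore do not measure how stable single calls were. In the cochlea, a minimum of 10 counts in every library, which keeps few low members, left 1 call at P0 and 1 at P16 (ratios to miR-127-3p 1 and 1), limma on quantile-normalized values gave 2 at P16, and a pseudocount of 1 gave 1 changed arm ratio at P16. Summing the miR-136 and miR-3071 entries gave 1 call from P0 to P16. In the SOC from P0 to P16, DESeq2, the fit of all 21 libraries and the set covariate each gave 2 calls and leaving out the libraries low in miR-191-5p gave 1, which also gave 1 at P0. Without those rich in miR-99b-5p 1 call was left at P16. With the set covariate 1 arm ratio changed at P0 and 1 at P16, and 3 miRNAs changed relative to miR-127-3p at P0. The interaction at P16 gave 1 by DESeq2 and 1 with library totals. The causes were not tested. With library totals less the members' own counts in place of TMM factors, the median of all SOC miRNAs moved by 0.26 from E16 to P16 and by 0.15 from P0 to P16, and the share of calls from P0 to P16 that were higher was 60%, against 50% with TMM and 43.1% with full library totals, with the 10 still at 0 calls there.

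With the replicate number as a block (replicate block), the SOC gave 1 call from P0 to P16 (miR-434-5p) and 1 changed arm ratio at P16 (miR-127), and the ratios to miR-127-3p in the cochlea gave 1 at P0 and 2 at P16. The pairing changed no other count by over 1.5 times. In the SOC the replicate numbers partly follow the library sets.

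Leaving out each library in turn gave 1 to 3 calls in the cochlea at P0, 1 to 4 at P16, 2 to 4 in the SOC at P16 and 0 to 2 from P0 to P16. It gave 0 to 1 changed SOC arm ratios at P16, 0 to 3 (P0) and 1 to 3 (P16) changes relative to miR-127-3p in the cochlea, 1 to 6 in the SOC at P16, and 1 to 3 (P0) and 0 to 2 (P16) interactions. An age left with 1 library was assumed to vary like the others. Depth limits the cochlear minor arms, which had 0 to 16 counts per library outside miR-434-5p.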
